A study of Homo sapiens with 4 samples.

Results

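Transcripts of 10 genes that carry the signal of cytokine receptors were followed in Kasumi-1 cells with and without knockdown of ANP32B, a nuclear phosphoprotein and histone chaperone. The genes were taken by symbol from a list of JAK-STAT output genes and comprised the transcription factors STAT3, STAT5A and STAT5B, the feedback inhibitors SOCS1, SOCS2, SOCS3 and CISH, and the kinases PIM1, PIM2 and PIM3. All 10 were among the 18567 genes of the deposited table, and 9 passed the filter on low values, which kept 16817 genes. SOCS3 did not pass. Kasumi-1 is an established acute myeloid leukemia (AML) line. The series held 2 control samples, called NC, and 2 samples with a short hairpin RNA against ANP32B, called sh-ANP32B. By their labels the NC samples had no treatment and no hairpin, but the study's methods name a control hairpin, stably introduced and selected with puromycin, so effects of infection and selection cannot be told apart from those of the knockdown if NC carried none. Which ANP32B hairpin was used, whether the cells were a clone and whether replicates came from separate cultures was not given in the sources used here, and p-values measure only the spread between these samples.

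Cytokine and growth factor receptors activate Janus kinases, which phosphorylate STAT proteins. Phosphorylated STATs enter the nucleus and bind a short palindromic DNA element. CISH and the SOCS genes are classical STAT targets whose products switch the receptor off again, and PIM kinases are STAT-induced serine/threonine kinases that favour growth and survival. In myeloid leukemia, STAT5 and STAT3 are often held active by mutant receptors. Activity of STAT proteins is set by phosphorylation, which RNA sequencing does not measure.

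The element that STAT dimers bind has the form TTCNNNGAA, which is its own reverse complement. RefSeq promoter windows (GRCh38.p14), from 250 bases before to 50 bases after each annotated start, were given for 9 of the 10 genes, and SOCS2 had none. The element was present in the window of CISH only, at 4 places, against 7.66% of all 35116 windows with at least 1 match and 0.0199% with 4 or more. The matches are shown in capitals, 5′ to 3′ on the strand of CISH. The first sequence, chr3:50611775-50611907, ends at the base before the start of CISH. It lies in no annotated exon but within the oppositely oriented MAPKAPK3, between exons of that gene. The second, chr3:50611996-50612015, lies in an exon of MAPKAPK3. The third, chr17:42388541-42388692, lies just upstream of the outermost annotated start of STAT3, which had the largest change of the 9 tested genes, and is printed for contrast because the element is absent from it.
CISH, 133 to 1 bases before the start: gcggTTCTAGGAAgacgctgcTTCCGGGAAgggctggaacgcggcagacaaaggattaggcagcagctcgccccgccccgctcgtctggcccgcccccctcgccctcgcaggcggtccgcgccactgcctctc
CISH, 241 to 222 bases before the start: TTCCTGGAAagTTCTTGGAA
STAT3, 250 to 99 bases before the start: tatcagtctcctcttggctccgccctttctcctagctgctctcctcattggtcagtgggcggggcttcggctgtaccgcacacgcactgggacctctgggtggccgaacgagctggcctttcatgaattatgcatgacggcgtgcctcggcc
With TTC and GAA set 4 bases apart in place of 3, the only match was in 1 window of STAT5A, against 6.44% of all windows. A match of letters is a description of the sequence and was not tested as a binding site.

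The targeted gene, ANP32B, had 384 and 392 TPM (the share of a transcript in its library, corrected for transcript length) in NC against 51.8 and 41.2 TPM in sh-ANP32B, or -3.04 ± 0.150 on the log2 scale (SE, adjusted p 0.00516 by limma). The depth of the libraries is unknown, because TPM keeps none. Of 9 markers listed for Kasumi-1 blasts, 7 were measured and 0 of these passed by limma. Their sum was 874 and 839.8 TPM in NC and 1141 and 1270 TPM under knockdown. Most of it was CD4 (440 and 432.5 TPM against 606.9 and 667.9 TPM) and SPI1 (250.6 and 241 TPM against 300.7 and 363.6 TPM). CD38 alone of the 7 went the other way, with 8.19 and 8.26 TPM in NC against 5.10 and 4.155 TPM in sh-ANP32B. CD34 and MPO were not analysed here, and KIT, the receptor for which the line is known, had only 1.55 to 3.41 TPM in the 4 libraries. RUNX1T1, part of the fusion gene of the line, had 15.6 to 31.2 TPM, and POU4F1, a gene typical of leukemias with this fusion, had 16.1 to 22.9 TPM. HOXA9, at 150.2 to 195 TPM, and MEIS1, at 49.9 to 64.3 TPM, are usually low in leukemias with this fusion. POU4F1, HOXA9 and MEIS1 were chosen after their values were seen. The label of the line was therefore borne out by some markers and not by others. Of 5 markers each for other cell types, the erythroid and epithelial genes were not analysed here, the fibroblast list was represented by PDGFRB alone (0.786 to 1.56 TPM), and 3 B cell genes summed to 4.94 to 11.4 TPM. The T cell list was represented by CD2 alone, which was higher in sh-ANP32B (9.25 and 9.49 TPM against 1.57 and 1.65 TPM). Of 12 markers listed for maturing myeloid cells, CD14 was not analysed here. The other 11 summed to 995 and 1050 TPM for the NC libraries, against 1873 and 1917 TPM under knockdown. Most of this sum was LYZ (669.4 and 696.8 TPM against 1360 and 1316 TPM). MNDA and CSF1R overlapped between the groups, and the rest lay apart and higher. Over all genes tested 33.2% lay apart and higher, and 54.6% lay apart in either direction. Of the 11, 3 passed the test, all higher, beside 2.14% of all genes tested. The part of these marker differences in the values below was not tested. In such bulk RNA, fewer cells of a state and less RNA per cell cannot be told apart.

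STAT3 alone among the 9 tested genes passed an adjusted p under 0.05, and it was higher in sh-ANP32B. All 9 had a positive log2 fold change, between 0.15 and 0.79, with a median of 0.29 against 0.08 over all 16817 genes tested. By limma, 3.32% of all genes tested passed, 2.14% higher and 1.18% lower. This split of 360 higher and 199 lower genes depended on the scaling of the libraries, as median-of-ratios scaling gave 236 and 284. Under the criterion of the study, an absolute log2 fold change over 0.5 at an unadjusted p under 0.05, STAT3 and PIM1 passed, where 12.1% of all genes were higher and 6.55% lower (2029 and 1101 genes, or 1522 and 1473 with median-of-ratios scaling). An unadjusted p under 0.05 was reached by 3 of the 9 genes, beside 23.8% of all genes tested. NC and sh-ANP32B values did not overlap, with sh-ANP32B higher, for 6 of the 9 genes, beside 33.2% of all genes tested and 54.6% with no overlap in either direction. Positive values were also the more frequent across the table, at 9741 of 16817 genes, and TPM are shares of a whole. The transcripts of the mitochondrial genome took 12.9% and 13.1% of the NC values but 11.4% and 8.43% of the sh-ANP32B values. With mitochondrial genes left out and the rest rescaled, the median of the 9 genes was 0.25 and that of all genes 0.04. With median-of-ratios scaling these medians were 0.21 and 0.005, and with quantile normalization 0.14 and -0.008. In each of these 3 settings all 9 genes lay above the median of all genes, and with GC correction 8 of the 9 did.

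**Figure D1:**
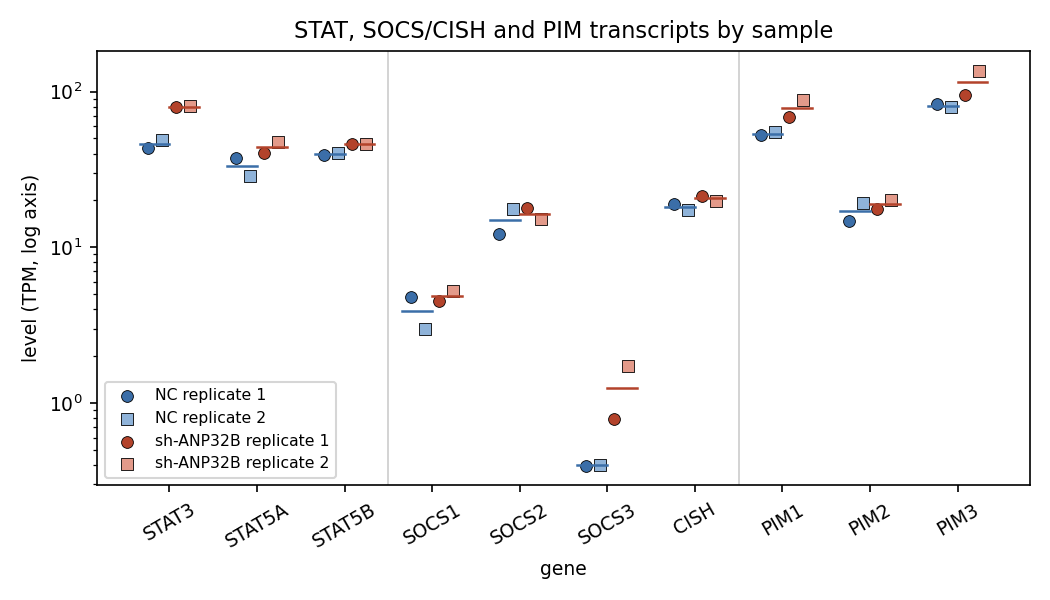
Level of each of the 10 genes in TPM on a log axis, with 1 point per sample (NC blue, sh-ANP32B red) and the group mean as a line. STAT3 shows a gap between the groups that is wide beside the spread of its replicates, 43.3 to 48.9 TPM against 79.2 to 81.2 TPM, and SOCS3 is the lowest gene, under 2 TPM in every sample.

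STAT3, the STAT of the interleukin-6 and G-CSF receptors, had 43.3 and 48.9 TPM in the NC libraries against 79.2 and 81.2 TPM under knockdown. Both sh-ANP32B values lay well above both NC values, and the replicates of each group were close to each other. On average STAT3 had 46.1 ± 3.95 and 80.2 ± 1.43 TPM (SD, n = 2 each), a ratio of 1.74, or 0.79 ± 0.140 on the log2 scale (SE, adjusted p 0.0440 by limma). This change stood at percentile 92.9 of all genes tested. The call was near the threshold. Over 11 other settings of the fit the log2 fold change was between 0.70 and 0.81 and the limma adjusted p between 0.00791 and 0.121, with 8 of 11 past the threshold; median-of-ratios scaling (0.0511), upper-quartile scaling (0.0507) and a fit without the abundance trend (0.121) did not pass. Without NC replicate 1 and without NC replicate 2 the log2 fold change was 0.70 and 0.87. Without sh-ANP32B replicate 1 and without sh-ANP32B replicate 2 it was 0.81 and 0.77. Each of these fits leaves 1 sample in a group, so none of them settles the call.

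STAT5A and STAT5B are closely related STATs used by the receptors for interleukin-3, GM-CSF and erythropoietin. STAT5A had 37.6 and 28.6 TPM in NC against 40.3 and 47.3 TPM in sh-ANP32B. The groups did not overlap, but the NC replicates lay further apart than the nearest values of the groups did. Its log2 fold change was 0.40 with a 95% interval of -0.04 to 0.85 (limma adjusted p 0.249). STAT5B had 39.4 and 40.4 TPM in NC against 45.9 and 46.0 TPM in sh-ANP32B, so the replicates of each group were nearly equal and the sh-ANP32B values slightly higher. Its log2 fold change was 0.20, with a 95% interval of -0.13 to 0.53 (limma adjusted p 0.431). Neither passed the test, and these intervals do not show that the genes were unchanged. STAT5B, STAT5A and STAT3 lie side by side on chromosome 17 of hg38, from 42199176 to 42288633, from 42287547 to 42311943 and from 42313324 to 42388540. STAT5A and STAT5B overlap on opposite strands by 1087 bases and are similar in sequence, and it is not given whether the counting used strand, so the split of reads between them is uncertain. Summed, they had 77.0 and 69.0 TPM in NC against 86.2 and 93.3 TPM in sh-ANP32B. STAT5A made up 48.8% and 41.5% of the sum in NC and 46.7% and 50.7% in sh-ANP32B, which overlap.

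**Figure D2:**
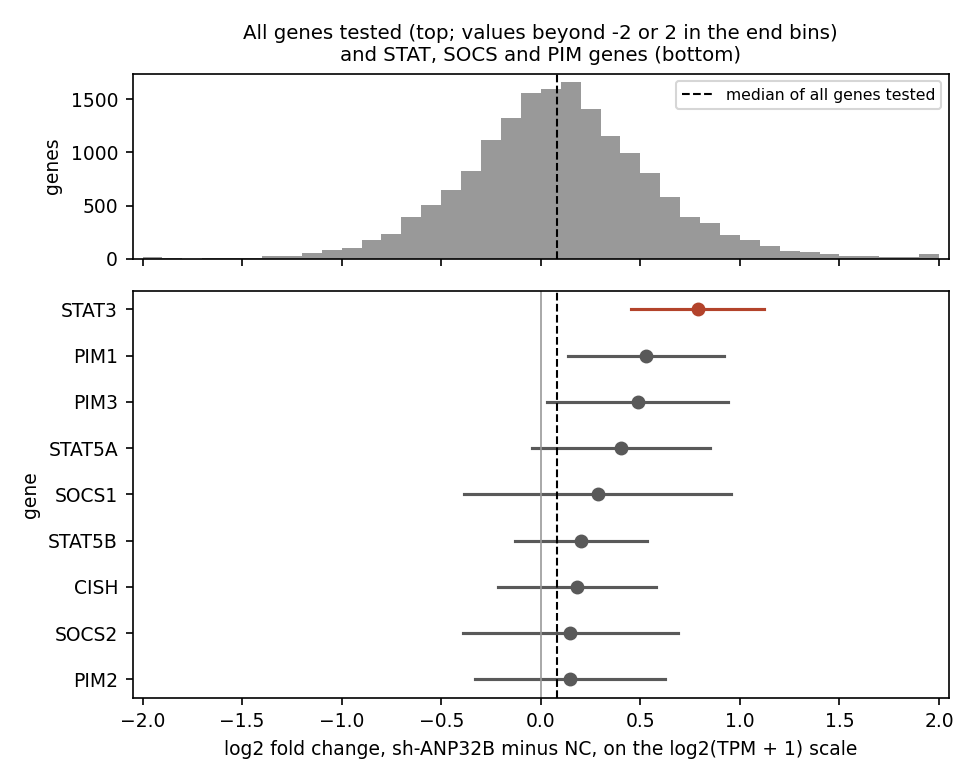
Histogram of the log2 fold change (sh-ANP32B minus NC) of all 16817 genes tested, above the fold changes of the 9 tested STAT, SOCS and PIM genes with their 95% limma intervals. The dashed line is the median of all genes, 0.08; all 9 points lie to its right, and STAT3 in red is the one with an adjusted p under 0.05.

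None of the 3 tested inhibitors of the SOCS family passed either criterion, and 0 of them had an unadjusted p under 0.05 by limma. CISH, the founding member of the family and an inhibitor of STAT5 signalling, had 18.8 and 17.3 TPM in NC against 21.4 and 19.8 TPM in sh-ANP32B. Both sh-ANP32B values were higher, but the gap between the groups was narrower than that between replicates, and the log2 fold change was 0.18 with a 95% interval of -0.22 to 0.58 (limma adjusted p 0.564). SOCS2, which restrains growth hormone signalling, had 12.2 and 17.7 TPM in NC against 17.8 and 15.2 TPM in sh-ANP32B. The groups overlapped, and the log2 fold change was 0.15 (95% interval -0.39 to 0.69, limma adjusted p 0.747). SOCS1, an inhibitor of Janus kinases that is induced by interferon, had 4.81 and 2.99 TPM in NC against 4.50 and 5.26 TPM in sh-ANP32B. The groups overlapped here too, with a log2 fold change of 0.29 (95% interval -0.38 to 0.96, limma adjusted p 0.590). SOCS3, the inhibitor induced by STAT3, had 0.396 and 0.399 TPM in NC against 0.784 and 1.73 TPM in sh-ANP32B. It reached 1 TPM in a single library and was therefore not tested with the other genes; in a fit without any filter its log2 fold change was 0.66 (limma adjusted p 0.328). SOCS1 lies wholly within RMI2 on the opposite strand, CISH shares 255 bases with MAPKAPK3 and SOCS2 shares 1955 bases with SOCS2-AS1, so reads of these neighbours may be counted with them.

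The 4 SOCS family transcripts together made up 36.3 and 38.4 TPM in NC against 44.5 and 42.0 TPM in sh-ANP32B. CISH was the largest or second largest part in every sample, at 52.0% and 45.0% of the sum in NC and 48.1% and 47.2% in sh-ANP32B. SOCS2 made up 33.7% and 46.2% in NC, and its share in the sh-ANP32B replicates, 40.0% and 36.1%, lay within that range. SOCS1 made up 13.3% and 7.78% in NC and 10.1% and 12.5% in sh-ANP32B, which overlap, with a mean 0.81 percentage points higher in sh-ANP32B. SOCS3 was the one whose share did not overlap between the groups, with 1.09% and 1.04% in NC and 1.76% and 4.12% in sh-ANP32B. These shares come from only 0.396 to 1.73 TPM. The difference between the groups was 1.88 percentage points, 0.70 without sh-ANP32B replicate 2 and 3.06 without sh-ANP32B replicate 1. The smallest two-sided p that an exact permutation test of 2 samples against 2 can give is 0.333, and shares were not tested.

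PIM1 and PIM3 had higher levels in both sh-ANP32B samples than in either NC sample, but neither passed the adjusted test. PIM1, the kinase first found as a site of viral insertion in mouse lymphomas, had 52.4 and 54.9 TPM in NC against 68.7 and 88.1 TPM in sh-ANP32B. The NC replicates were close, and the sh-ANP32B replicates lay further from each other than the lower of them lay from NC. Its log2 fold change was 0.53, with a 95% interval of 0.14 to 0.92 (limma unadjusted p 0.0153, adjusted p 0.120). PIM1 passed the criterion of the study as fitted, but its log2 fold change fell under the limit of 0.5 in 6 of the 11 other settings, where it was between 0.44 and 0.48. PIM3, the most abundant of the 10 genes, had 83.3 and 79.1 TPM in NC against 95.2 and 137 TPM in sh-ANP32B, so that sh-ANP32B replicate 2 stood far above the other libraries. Its log2 fold change was 0.49 (95% interval 0.03 to 0.94, limma unadjusted p 0.0388, adjusted p 0.187). PIM2, an X-linked gene, had 14.7 and 19.4 TPM in NC against 17.6 and 20.1 TPM in sh-ANP32B. These groups overlapped, with a log2 fold change of 0.15 (95% interval -0.33 to 0.62, limma adjusted p 0.712). Without NC replicate 1 the sign turned for both PIM2 and SOCS2, at -0.041 and -0.11.

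Summed over the 3 kinases, PIM transcripts had 150.4 and 153 TPM in NC against 182 and 245 TPM in sh-ANP32B. PIM3 supplied the largest part in every sample, 55.4% and 51.6% in NC and 52.5% and 55.8% in sh-ANP32B, and these shares overlapped. PIM1 supplied 34.9% and 35.8% in NC and slightly more, 37.9% and 36.0%, in sh-ANP32B, with no overlap. PIM2 was the smallest part throughout, with 9.79% and 12.6% in NC and 9.68% and 8.21% in sh-ANP32B, again with no overlap. PIM1 and PIM3 together thus made up most of the sum in every sample.

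Placed in order of their mean level in NC, the 10 transcripts ran from PIM3 (81.2 TPM) through PIM1 (53.7 TPM), STAT3 (46.1 TPM), STAT5B (39.9 TPM), STAT5A (33.1 TPM), CISH (18.1 TPM), PIM2 (17.1 TPM), SOCS2 (14.97 TPM) and SOCS1 (3.90 TPM) to SOCS3 (0.397 TPM). CISH, PIM2 and SOCS2 overlapped in their NC values and have no firm order. In sh-ANP32B the order of the means was changed at 1 place, with STAT3 (80.2 TPM) just above PIM1 (78.4 TPM), and these overlapped there. The values of STAT5B and STAT5A, 46.0 and 43.8 TPM on average, also overlapped in sh-ANP32B. TPM are corrected for transcript length, so these levels can be set side by side in that respect. Whether GC content was corrected for is not given, and reads of overlapping genes may be counted with some of them.

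The difference between replicates was set beside the GC content of each gene's longest transcript. SOCS1 and PIM3 had the highest GC content, 69.1% and 65.4%, and SOCS2 the lowest, 47.3%. Between the sh-ANP32B replicates, replicate 2 was above replicate 1 by 0.52 log2 units for PIM3, by 0.35 for PIM1 and by 0.61 for SOCS3, and was below it for SOCS2, with a difference of -0.22. SOCS1, the gene with the highest GC content, had only 0.19, and CISH, at 56.7%, had -0.10. In NC the difference was -0.54 for SOCS1 and 0.51 for SOCS2, but -0.07 for PIM3 and 0.003 for SOCS3. Over the table the difference between sh-ANP32B replicates had a Spearman rho of 0.577 with GC content across the 15427 tested genes with a known transcript, and the difference between NC replicates a rho of -0.206. These are correlations across genes, which are not independent, and serve as a description of the libraries. After the dependence on GC content was removed in each sample by a loess fit, PIM1 had a log2 fold change of 0.46 (adjusted p 0.0259 by limma). PIM3 had one of 0.31 (limma adjusted p 0.0391), so that 3 of the 9 genes passed where 1 had. Of all genes tested, 2769 of 15427 passed with this correction, where 559 of 16817 (3.32%) had passed without it. STAT3, with a GC content of 50.8%, had 0.81 in this fit (limma adjusted p 0.00791). In fits without GC correction, leaving out sh-ANP32B replicate 2 gave a log2 fold change of 0.35 for PIM1 and 0.23 for PIM3. Leaving out sh-ANP32B replicate 1 gave 0.71 and 0.74.

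**Figure D3:**
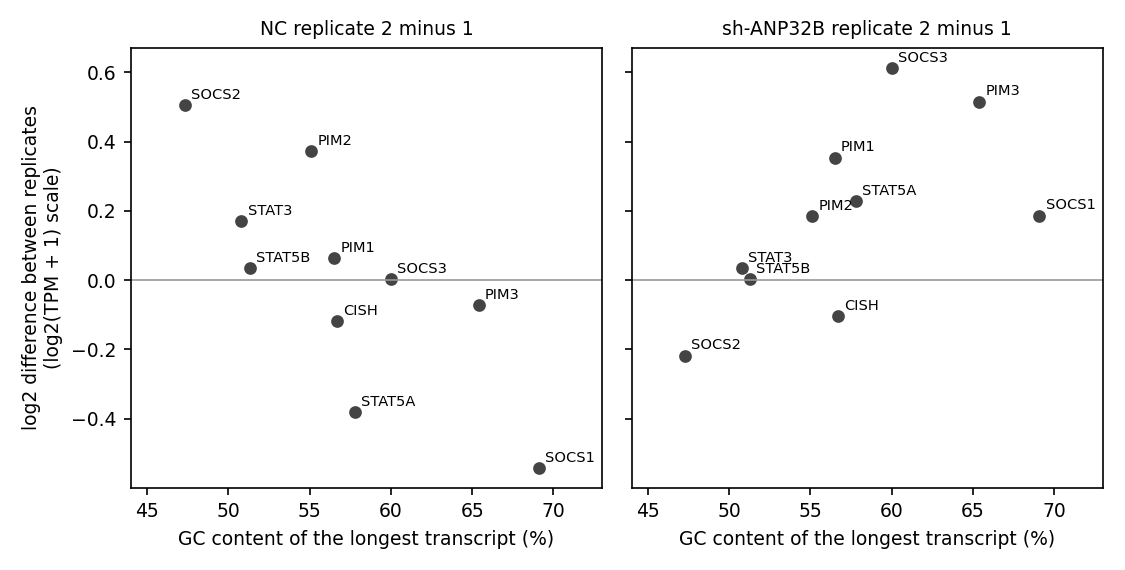
Difference between the replicates of each group (replicate 2 minus replicate 1, log2 scale) against the GC content in percent of the longest transcript, with 1 point per gene for the 10 genes. In NC the extremes are SOCS2 (0.51) and SOCS1 (-0.54), and in sh-ANP32B they are SOCS2 (-0.22) and SOCS3 (0.61), with other genes scattered between.

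The rest of the pathway was examined with lists of 81 further genes, of which 71 were tested. An adjusted p under 0.05 was reached by 4 higher and 2 lower genes, and the criterion of the study by 17 higher and 4 lower genes. These compare with 2.14% and 1.18% of all genes for the first test and 12.1% and 6.55% for the second. The median log2 fold change of the 71 genes was 0.27, near the 0.29 of the STAT, SOCS and PIM genes. The first count depended on single libraries, and so did the count over all genes tested. Each fit without 1 sample leaves 1 in a group, so that its spread rests on the other pair alone.

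Of STAT2 and STAT6, the other STATs described here, STAT2, a transcription factor of the interferon response, was higher. It had 77.2 and 71.8 TPM in NC against 137 and 128 TPM in sh-ANP32B, or 0.83 ± 0.130 on the log2 scale (SE, adjusted p 0.0392 by limma). On leaving out each sample in turn the log2 fold change of STAT2 was between 0.77 and 0.88, and these fits do not settle the call. STAT6, which serves interleukin-4, had 119.5 and 122 TPM in NC against 179.8 and 198 TPM in sh-ANP32B, which missed the threshold narrowly (log2 fold change 0.64, limma adjusted p 0.0503). STAT3, STAT5A, STAT5B, STAT2 and STAT6 each had both sh-ANP32B values above both NC values, and of these 5 genes STAT3 and STAT2 passed the test. Over all genes tested 33.2% lay apart and higher in this way, and 2.14% passed higher.

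None of the 4 Janus kinases passed by limma, and 2 had an unadjusted p under 0.05, beside 23.8% of all genes. TYK2 had 131.7 and 123 TPM in NC against 164 and 294 TPM in sh-ANP32B (log2 fold change 0.78, limma adjusted p 0.137), with a wide gap between the sh-ANP32B replicates. JAK2, the kinase of the erythropoietin and GM-CSF receptors, had 6.02 and 7.52 TPM in NC against 14.6 and 8.70 TPM in sh-ANP32B (log2 fold change 0.67, limma adjusted p 0.210). JAK1 and JAK3 had log2 fold changes of 0.27 and -0.12, with limma adjusted p of 0.295 and 0.710.

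Of 18 receptor chains tested, 2 were higher and 0 lower at an adjusted p under 0.05 by limma, beside 2.14% and 1.18% of all genes. An unadjusted p under 0.05 was reached by 5, beside 23.8% of all genes. The groups were apart for 11 chains with sh-ANP32B higher and for 0 with it lower, beside 33.2% and 21.4% of all genes. CSF2RB, the beta chain shared by the receptors for GM-CSF, interleukin-3 and interleukin-5, had 10.1 and 12.2 TPM in NC against 25.3 and 25.7 TPM in sh-ANP32B, or 1.13 ± 0.180 on the log2 scale (SE, adjusted p 0.0392 by limma). CSF3R, the G-CSF receptor and also 1 of the maturing myeloid markers, had 77.0 and 72.5 TPM in NC against 121 and 158 TPM in sh-ANP32B, or 0.88 ± 0.164 on the log2 scale (SE, adjusted p 0.0455 by limma). On leaving out each sample in turn the log2 fold change was between 1.00 and 1.26 for CSF2RB and between 0.69 and 1.07 for CSF3R. These fits do not settle either call. CSF3R passed in 8 of 11 other settings and missed with median-of-ratios scaling (0.0598), with upper-quartile scaling (0.0551) and without the abundance trend (0.129). IL10RA and IFNGR1, chains of the interleukin-10 and interferon-gamma receptors, had log2 fold changes of 0.86 and 0.70 (limma adjusted p 0.0565 and 0.0987).

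Among 15 other inhibitors of the pathway 0 passed by limma, and 1 had an unadjusted p under 0.05, beside 23.8% of all genes. That gene was PTPRC, the phosphatase CD45, with a log2 fold change of 0.59 (adjusted p 0.115 by limma). PTPN6, the phosphatase SHP-1, and the SOCS family member SOCS5 had log2 fold changes of 0.35 and 0.45 (limma adjusted p 0.264 and 0.276). PIAS3, an inhibitor of STAT3, had 0.16 (limma adjusted p 0.529). The median over the 15 genes, 0.07, lay close to the 0.08 of all genes.

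Of 18 other tested genes known as STAT3 or STAT5 targets, 1 was higher and 1 lower at an adjusted p under 0.05 by limma, and 6 were higher and 2 lower by the criterion of the study. Over all genes tested, 2.14% were higher and 1.18% lower by the first test, and 12.1% and 6.55% by the second. The log2 fold changes of the 18 genes were positive for 14 and negative for 4, where 9741 of all 16817 genes were positive. Their median was 0.36 against 0.08 over all genes. The groups were apart for 11 of the 18 with sh-ANP32B higher and for 2 with it lower, beside 33.2% and 21.4% of all genes. MYC had 130.8 and 144 TPM in NC against 56.7 and 63.2 TPM in sh-ANP32B, and fell by 1.18 on the log2 scale (SE 0.137, limma adjusted p 0.0261). CDKN1A, the cell cycle inhibitor p21, had 15.4 and 18.3 TPM in NC against 30.8 and 41.5 TPM in sh-ANP32B, or 1.05 ± 0.202 on the log2 scale (SE, adjusted p 0.0482 by limma). The CDKN1A call was lost in 6 of 11 other settings. On leaving out each sample in turn its log2 fold change was between 0.84 and 1.26. BCL3, a nuclear partner of NF-kB, and the survival factor BCL2 had log2 fold changes of 1.09 and -0.92 (limma adjusted p 0.0577 and 0.0736). BCL2L1, which encodes the STAT5-responsive survival protein BCL-XL and is added here after its value was seen, had 48.0 and 51.8 TPM in NC against 47.8 and 55.9 TPM in sh-ANP32B, which overlapped (log2 fold change 0.05, limma adjusted p 0.880).

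Among 14 tested substrates of PIM kinases, 0 were higher and 1 was lower at an adjusted p under 0.05 by limma, beside 2.14% and 1.18% of all genes. The log2 fold changes were positive for 9 and negative for 5, with a median of 0.31 against 0.08 over all genes. The groups were apart for 9 with sh-ANP32B higher and for 2 with it lower, beside 33.2% and 21.4% of all genes. The gene that passed was CDC25A, a phosphatase that drives entry into S phase. It had 36.4 and 33.8 TPM in NC against 16.3 and 18.6 TPM in sh-ANP32B, and fell by 0.97 on the log2 scale (SE 0.163, limma adjusted p 0.0425). On leaving out each sample in turn its log2 fold change was between -1.06 and -0.88, and these fits do not settle the call. The chaperone HSP90AA1 had a log2 fold change of -0.73 (adjusted p 0.0597 by limma). The cell cycle inhibitor CDKN1B, p27, and the chemokine receptor CXCR4 had log2 fold changes of 0.52 and 0.41 (limma adjusted p 0.0860 and 0.119).

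**Figure D4:**
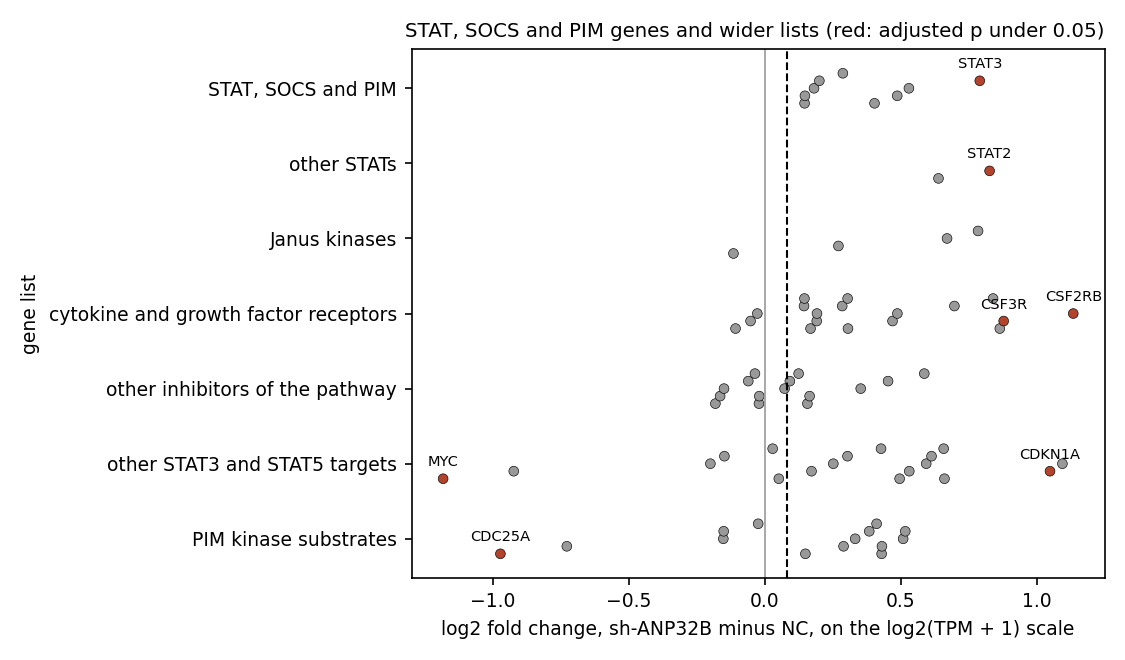
Log2 fold change (sh-ANP32B minus NC) of every tested gene, with 1 point per gene, for the STAT, SOCS and PIM genes and for each wider list; points are offset vertically for legibility only. Genes with an adjusted p under 0.05 are red and named: STAT3, STAT2, CSF2RB, CSF3R and CDKN1A to the right, and MYC and CDC25A to the left. The dashed line is the median of all genes, 0.08.

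The profile of STAT3 over the 4 samples was set beside that of 9742 other genes with a mean of at least 10 TPM, by the Euclidean distance between log2 values centred on each gene's own mean. The nearest were OSBPL2, ST3GAL2, SCNN1D, KLF6 and LRSAM1, at distances of 0.0113 to 0.0759 log2 units. OSBPL2, a lipid-binding protein, had 23.7 and 26.6 TPM in NC against 43.6 and 44.5 TPM in sh-ANP32B. KLF6, a zinc finger transcription factor, had 35.4 and 41.4 TPM in NC against 68.4 and 71.1 TPM in sh-ANP32B. With 4 samples many genes come close to any profile, and the distances are a description.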

How the data were processed

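RNA-seq libraries of 4 samples, 2 NC and 2 sh-ANP32B, were grouped by their titles. Per the labels and the methods of the study, reads were aligned to hg38 with HISAT2 2.0.5. The authors deposited TPM values; the unit was recognised from the values, whose columns sum to 997812 to 998314. The program that made the TPM, its annotation and any filter are not given in the sources used here, and depth is unknown. TPM are shares, so a change of abundant transcripts moves all other genes.

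Of 18567 gene IDs, 16986 were found in GENCODE v44 (hg38), used for symbols, positions and GC content. A gene was kept if 2 or more samples reached 1 TPM. Groups were compared on log2(TPM + 1), which understates changes of low genes, by limma 3.58.1 with an abundance trend (R 4.3.3), with two-sided p-values adjusted by Benjamini-Hochberg over all genes tested. The count-based test of the study could not be applied to TPM. The genes and lists were chosen with earlier results of these data known. Named beside the 10 genes are ANP32B, the 4 genes of each wider list with the lowest p, the 5 genes nearest in profile to the one of the 10 with the largest tested change, and single markers of the line and of other cell types from the marker lists; others are marked as chosen after their values were seen. From the wider lists 1 gene is not reported here and was left out of their counts. Promoter sequences are from RefSeq (GRCh38.p14). Alternatives were other scalings, filters, a pseudocount of 0.1, no trend, GC correction, a replicate block and leaving out each sample. Scripts used Python 3.11.15, pandas 2.3.3 and matplotlib 3.10.9.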

Additional observations from a re-analysis of the deposited data

How the results depend on the processing

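Limits were set mainly by 2 samples per group and by the unknown depth. The count of all genes with a limma adjusted p under 0.05, 559 of 16817 as reported (360 higher, 199 lower), was 0 without the abundance trend (3701 at an unadjusted p under 0.05). It was 2769 of 15427 with GC correction and 812 of 14476 where every sample had to reach 1 TPM. By direction, median-of-ratios scaling gave 236 higher and 284 lower, upper-quartile scaling 241 and 227, and quantile normalization 244 and 234. Of the 9 STAT, SOCS and PIM genes, 1 as reported, the count was 0 with median-of-ratios scaling, 0 with upper-quartile scaling and 0 without the trend (2 at an unadjusted p under 0.05 in each), and 3 with GC correction. By the criterion of the study, 2 as reported, it was 1 with median-of-ratios, upper-quartile and quantile scaling, without mitochondrial genes, and with GC correction. Of the wider lists, 6 as reported, the count was 10 where every sample had to reach 1 TPM, 0 without the trend (20 at an unadjusted p under 0.05) and 28 with GC correction. ANP32B had -3.04 without the trend (limma adjusted p 0.0929). The share of SOCS1 in its family, 0.81 percentage points higher as reported, had a log2 difference of -0.043 from the other SOCS genes. The cause was not tested.

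The replicate numbers are shared by the groups, but no label ties equal numbers to a shared culture or day, and deviations of same-numbered samples had a Pearson r of -0.0925 (Spearman rho -0.168). With the replicate block 1473 of all genes passed (982 higher, 491 lower), 1 of the 9 and 13 of the wider lists. STAT3 had a limma adjusted p of 0.0110 in this fit. ANP32B had a limma adjusted p of 9.4e-42 with the block, against 0.00516 as reported. The p-values of these fits are therefore not alike in scale, and a smaller one with the block does not settle the STAT3 call. With the replicate block and GC correction the counts were 2218 of 15427, 2 and 19, and 1 of the 9 by the criterion of the study.

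Leaving out each sample leaves 1 in a group, assumed to vary like the others. The count ranged from 273 to 4079 for all genes, from 0 to 3 for the 9 genes (1 at an unadjusted p under 0.05 where it was 0) and from 1 to 33 for the wider lists; by the criterion of the study it ranged from 1884 to 3953 and from 1 to 4. In these fits SOCS2 and PIM2 changed sign, with log2 fold changes of -0.11 to 0.40 and -0.041 to 0.33.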
